A study of Mus musculus with 262 samples.

Results

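Oxgr1, Adgrf5, P2ry14, Sucnr1 and Casr encode 5 G protein-coupled receptors that sense metabolites, nucleotide sugars, calcium or adhesion ligands. They were taken by symbol, as receptors of interest in intercalated cells, from all deposited tables: 5 of the 47069 genes of the tables of TPM, a length-scaled share of transcripts, and 5 of the 24111 genes of the count table. The members were chosen by measured values of these samples, as receptors of intercalated cells. Their levels in the single-cell types and in the sorted fractions are therefore treated as used for the choice and given as a description, without a test. The comparison of 2 dissected tubule segments is tested for the 5 genes on the assumption that its values did not enter the choice, which the sources do not settle. Intercalated cell markers differ between these segments too, so the p-values of that comparison are not independent of the choice. The series held 262 mouse kidney samples from 2-month-old males. It had single cells of C57BL/6 mice, each captured on a microfluidic chip after sorting with an antibody or lectin (DBA + c-Kit, DBA, c-Kit or PNA): 87 type A intercalated, 23 type B intercalated, 74 principal, 19 proximal tubule and 32 non-epithelial cells. Bulk fractions were c-Kit sorted cells (2 samples) and DBA sorted cells (2 samples) of C57BL/6 mice, and GFP-positive and GFP-negative cells (2 samples each) of the strain Atp6v1b1GFP, which is named for the B1 subunit of the vacuolar proton pump. Hand-dissected segments of C57BL/6 mice were the cortical collecting duct (CCD, 11 samples) and the cortical thick ascending limb (cTAL, 8 samples). The labels record no treatment, name no animal for a cell and do not say whether animals were pooled, so p-values measure the spread between these samples, which may be technical.

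Intercalated cells handle acid and base in the collecting duct: type A cells secrete acid through an apical proton pump and the basolateral exchanger Slc4a1, and type B cells secrete bicarbonate through the apical exchanger Slc26a4. Oxgr1 is the receptor for 2-oxoglutarate, a citric acid cycle intermediate that the proximal tubule adds to the luminal fluid, and it is known in type B cells for raising bicarbonate secretion and salt uptake. Sucnr1 is the receptor for succinate, another intermediate of that cycle. P2ry14 responds to UDP-glucose and other UDP-sugars, Adgrf5 (older name Gpr116) is an adhesion receptor known for surfactant control in the lung and for acid secretion in type A cells, and Casr is the calcium-sensing receptor, known in the thick ascending limb for curbing calcium reabsorption.

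On GRCm38 with the GENCODE annotation, Oxgr1 lies on the minus strand at chr14:120019585-120042435, Adgrf5 on the plus strand at chr17:43360451-43459557, P2ry14 on the minus strand at chr3:59113855-59153618, Sucnr1 on the plus strand at chr3:60081869-60087566 and Casr on the minus strand at chr16:36493696-36562141. Promoter stretches of Oxgr1, Adgrf5 and P2ry14 are shown because these genes had their highest mean level in type A cells. They are RefSeq sequences on GRCm38.p6, 5′ to 3′ on the gene's strand, from 250 bases before the annotated start to 30 after it. Capitals mark matches on either strand to a forkhead core, TAAACA, or to a Tfcp2l1 pattern, a pair of CCNG half-sites with 6 bases of any kind between them, chosen because the forkhead factor Foxi1 and the factor Tfcp2l1 are known regulators of intercalated cells.
Oxgr1 (chr14:120042406-120042685, minus strand): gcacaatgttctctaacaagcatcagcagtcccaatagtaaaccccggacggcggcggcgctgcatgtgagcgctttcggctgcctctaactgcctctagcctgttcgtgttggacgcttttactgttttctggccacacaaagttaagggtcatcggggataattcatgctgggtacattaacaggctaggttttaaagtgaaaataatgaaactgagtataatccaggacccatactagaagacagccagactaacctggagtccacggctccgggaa
Adgrf5 (chr17:43360181-43360460, plus strand, first of 2 start sites): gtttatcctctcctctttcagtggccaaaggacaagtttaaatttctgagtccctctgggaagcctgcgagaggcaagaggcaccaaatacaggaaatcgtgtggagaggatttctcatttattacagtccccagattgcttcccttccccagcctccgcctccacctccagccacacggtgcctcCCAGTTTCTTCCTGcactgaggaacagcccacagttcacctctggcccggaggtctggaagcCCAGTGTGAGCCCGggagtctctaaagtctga
P2ry14 (chr3:59131299-59131578, minus strand, second of 4 start sites): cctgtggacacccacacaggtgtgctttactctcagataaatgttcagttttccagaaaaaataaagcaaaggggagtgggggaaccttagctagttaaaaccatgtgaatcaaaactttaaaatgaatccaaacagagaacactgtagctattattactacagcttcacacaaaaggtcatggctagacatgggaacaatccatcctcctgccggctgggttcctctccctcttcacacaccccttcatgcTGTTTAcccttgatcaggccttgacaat
The Oxgr1 stretch held neither motif. Adgrf5 had the Tfcp2l1 pattern at positions -64 and -2 from its first start (CCAGTTTCTTCCTG and CCAGTGTGAGCCCG). P2ry14 had the forkhead core, read on the other strand as TGTTTA, at position 3 from its second start, and the window of the third start overlaps that stretch and held the same match; the other windows of Adgrf5 and P2ry14 held neither motif. The windows of 300 bases at the only listed starts of Sucnr1 and Casr held neither motif. The P2ry14 stretch shown is one with a match, and the window of its first start held none. Of 32851 RefSeq promoter windows of that length, 13.4% held the forkhead core and 29.5% the Tfcp2l1 pattern. These shares are per window, while 4 windows were searched for P2ry14 and 2 for Adgrf5. A match is therefore a description and not a binding site.

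Each labelled cell type had its leading markers, and some markers were found in other types too. A gene counted as detected in a cell at 1 TPM or more. Slc4a1 was detected in 77 of 87 type A cells, Slc26a4 in 23 of 23 type B cells, Aqp2, the water channel of principal cells, in 74 of 74 principal cells, and Cd74, an antigen presentation gene of leukocytes, in 32 of 32 non-epithelial cells. Slc4a1 was also detected in 15 of 32 non-epithelial cells, at a mean of 32.7 TPM, and in 14 of 74 principal cells. Of the 87 type A cells, 1 had 15415 TPM of mast cell markers; it held 22.6 TPM of Oxgr1, 32.5 TPM of Adgrf5 and 57.5 TPM of P2ry14. In proximal tubule cells Lrp2, an endocytic receptor of that segment, was found in 18 of 19, and Aqp2 in 14 of 19 at a mean of 486 TPM. Aqp2 was also found in 58 of 87 type A cells, at a mean of 49.1 TPM. A median of 2704 to 3253 genes was detected per cell across the 5 types. In the GFP count table, 35530885 to 40815091 reads fell in genes in each sample, and 66.5 to 72.7% of all reads in it were assigned to no feature. Cells of 1 type are not replicates of a condition, so each type counts as 1 sample here, and the intervals below cover counting error only.

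Oxgr1 transcripts were found mostly in intercalated cells of both types. The mean was 247 TPM in type A cells (median 121.5, SD 319, n = 87 cells) and 127 TPM in type B cells (median 9.56, SD 216, n = 23). Oxgr1 was detected in 76 of 87 type A cells (87.4%, exact Clopper-Pearson 95% interval 78.5 to 93.5%) and in 16 of 23 type B cells (69.6%, 47.1 to 86.8%). Type B cells fell into a high and a low part: 9 of 23 were at 100 TPM or more, while the lower quartile was 0.81 TPM. Non-epithelial cells averaged 89.6 TPM with a median of 0.67, from 12 detected cells, and principal cells averaged 27.8 TPM with a median of 0.33, from 20 detected cells. In principal cells 1 cell at 884 TPM gave 43.0% of the sum. Proximal tubule cells averaged 0.927 TPM. The interquartile ranges of each neighbouring pair in this order overlapped.

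Adgrf5 was high in type A cells and near 0 in most type B cells. Of 87 type A cells, 80 had it (92.0%, 84.1 to 96.7%) at a mean of 156 TPM (median 105.6, SD 161), as did 4 of 23 type B cells (17.4%, 4.95 to 38.8%) at a mean of 1.69 TPM. Non-epithelial cells averaged 35.8 TPM (11 of 32 detected, median 0.3), principal cells 11.2 TPM (19 of 74) and proximal tubule cells 0.915 TPM (3 of 19). The interquartile range of type A cells, 30.2 to 216 TPM, lay above that of the next type, non-epithelial cells, at 0.105 to 1.92 TPM. Adgrf5 is also known from endothelium. The summed level of 8 endothelial markers ranged from 0 to 11 TPM over the type A cells, with a median of 0. Of the 8, Emcn was detected in 9 of 87 cells and the other 7 in none. The part of endothelial RNA in the Adgrf5 level was not tested.

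P2ry14 reached 1 TPM in a minority of type A cells, over a wide range of levels. Transcripts were present in 28 of 87 type A cells (32.2%, 22.6 to 43.1%), and the median of those 28 was 105.6 TPM, although the median of all type A cells was 0.25 TPM. A single cell at 2556 TPM gave 29.4% of the type A sum. All 28 cells also had Adgrf5 and Slc4a1, and 27 had Oxgr1. These 3 genes were detected in 80, 77 and 76 of all 87 type A cells, so nothing is read from the overlap. Outside type A cells, P2ry14 was detected in 6 of 32 non-epithelial cells, where 1 cell at 1264 TPM gave 78.1% of the sum, in 7 of 74 principal cells at a mean of 0.614 TPM, in 1 of 23 type B cells, at 106 TPM, and in 1 of 19 proximal tubule cells.

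Casr had its highest level in type B cells. It was detected in 9 of 23 type B cells (39.1%, 19.7 to 61.5%) at a mean of 12.9 TPM over all 23 (median 0.59, SD 24.1). The share was 5 of 87 in type A cells (5.75%, 1.89 to 12.9%), where 1 cell at 131 TPM gave 75.7% of the sum. Non-epithelial, principal and proximal tubule cells averaged 1.76, 0.879 and 0.221 TPM. The interquartile range of type B cells, 0.07 to 10.5 TPM, lay above the 0 to 0 of type A cells. Of the thick ascending limb, a site of high Casr, Umod was detected in 7 of 23 type B and 17 of 87 type A cells, with medians of 0.15 and 0 TPM, Slc12a1 in 6 of 23 and 3 of 87, and Cldn16 in none of either. Ptger3, on the same list of 5 markers, was detected in 11 of 23 type B and 15 of 87 type A cells, and Cldn10 in 0 of 23 and 7 of 87. Their part in the Casr level was not tested.

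Sucnr1 was nearly absent from the single cells. It was detected in 3 cells of all types: 1 type A cell at 88.0 TPM, 1 non-epithelial cell at 150 TPM and 1 proximal tubule cell at 20.7 TPM. Leaving out cells with 100 TPM or more of a marker of another type removed the type A and the non-epithelial cell. Sucnr1 was then detected in 0 of 64 type A, 0 of 17 non-epithelial and 1 of 10 proximal tubule cells. The source of Sucnr1 in the removed cells was not tested. No principal cell of 74 and no type B cell of 23 had it, which allows shares of up to 4.05% and 13.0% of cells at 1 TPM or more when 3 cells are taken as the limit of a count of 0 (exact Clopper-Pearson upper limits 4.86% and 14.8%). The order of types for this gene therefore rested on single cells.

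**Figure D1:**
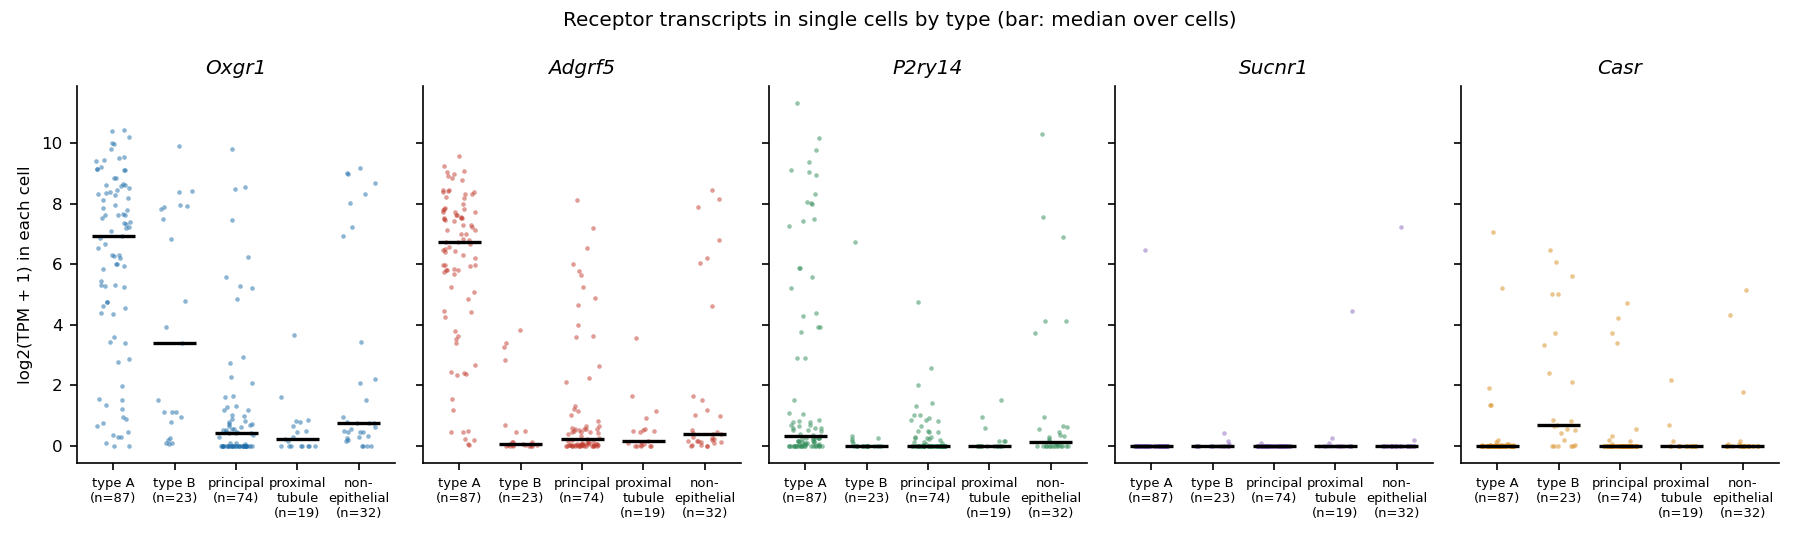
Levels of the 5 receptors in each single cell, as log2(TPM + 1) on the vertical axis, by labelled type on the horizontal axis. Each point is a cell and each bar is the median over the cells of a type. Oxgr1 and Adgrf5 have type A medians of 121.5 and 105.6 TPM, while P2ry14 is at 1 TPM or more in 28 of 87 type A cells. Casr is highest in type B cells and Sucnr1 is at or near 0 in nearly all cells.

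Within type A cells Oxgr1 and Adgrf5 were each detected in most cells, 76 and 80 of 87, and both were detected in 74. With each gene in most cells, that count is not read as a link between them. All of Oxgr1, Adgrf5 and P2ry14 were found in 27 cells, and 5 cells had none of these. No type B cell of 23 had all 3. In type B cells Oxgr1 and Casr were both detected in 6 of 23 cells, Oxgr1 alone of this pair in 10 and Casr alone in 3. Type A cells with Foxi1 had a median of 198 TPM of Oxgr1 (58 cells), and those without had 22.6 TPM (29 cells). Split by Slc4a1 the medians were 148 and 0.635 TPM (77 and 10 cells), and by Adgrf5 155 and 0.35 TPM (80 and 7 cells). Nothing particular to Foxi1 is therefore read from its split. Type A cells had 1092 to 4161 detected genes, and the part of capture in these splits was not tested. Leaving out cells with 100 TPM or more of a marker of another type left 64 type A cells with an Oxgr1 mean of 265 TPM, and 17 non-epithelial cells with 91.7 TPM. That step keeps cells with less of a marker, so it cannot separate out their RNA from other types. Of the 15 non-epithelial cells with Slc4a1, 4 were at 100 TPM or more. Of the 12 non-epithelial cells with Oxgr1, 9 also had Adgrf5 and 8 had Slc4a1. The part of RNA from intercalated cells in these 32 cells was not tested.

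Across all cells of the 5 types on the log2(TPM + 1) scale, the genes most like Oxgr1 among 8338 compared were Pam (Pearson r = 0.73), the proton pump subunit Atp6v0d2 (0.71), Aldh1l1 (0.70), the membrane peptidase Mme (0.70) and the pump subunit Atp6v1g3 (0.69). Those most like Adgrf5 were the transcription factor Dmrt2 (0.79), Slc4a1 (0.74), Mme (0.73), Pam (0.72) and Kit (0.72), the receptor behind the c-Kit sort. No gene reached 0.5 with P2ry14 or Casr, where the top values were 0.39 with Slc4a1 and 0.44 with Slc26a4. Oxgr1 and Adgrf5 had r = 0.65 over all cells and 0.39 within the 87 type A cells. These values describe cells that share types and libraries, and they carry no test.

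In fractions sorted on GFP, transcripts of 4 receptors were more abundant in GFP-positive cells and those of Sucnr1 in GFP-negative cells. Values are CPM, read counts relative to library size scaled by TMM, in replicates 1 and 2. Oxgr1 was at 384 and 303 CPM in GFP-positive and 6.79 and 4.97 CPM in GFP-negative samples, a fitted log2 difference of 5.86 ± 0.26 (SE). P2ry14 was at 49.3 and 92.5 CPM against 2.34 and 1.08 CPM (5.35 ± 0.45). Adgrf5 was at 2118 and 3253 CPM against 284 and 140.4 CPM (3.66 ± 0.38). For these genes the lowest GFP-positive sample stood far above the highest GFP-negative sample. Casr was at 405 and 255 CPM against 99.2 and 83.2 CPM (1.86 ± 0.24), also with no overlap. Sucnr1 went the other way, with 3.01 and 3.06 CPM in GFP-positive and 34.9 and 27.8 CPM in GFP-negative samples (-3.37 ± 0.27), that is 112 and 116 reads against 1488 and 952. The count of calls in this contrast, 4 higher and 1 lower of 5, stands beside 32.6% of all 15671 genes tested with edgeR's quasi-likelihood test (15.2% higher, 17.3% lower). All 5 had groups without overlap, beside 70.2% of all genes (35.8% higher, 34.4% lower), and nothing is read from either count because the genes were chosen for this kind of contrast. In bulk samples, fewer cells of a type and less RNA per cell cannot be told apart.

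Markers of several cell types moved with the GFP sort. The type A markers summed to 3757 and 8204 CPM against 45.5 and 93.7 CPM in GFP-negative cells, and all 11 markers of type A, type B or both rose. Markers of the distal convoluted and connecting tubule also rose, 6 of 6, with sums of 2678 and 3893 CPM against 141 and 218 CPM. Thick limb markers summed to 10036 and 15499 CPM against 7757 and 8712 CPM, with 1 of 5 higher, 1 lower and 3 not passing the test. Principal cell markers rose in 6 of 7, with sums of 1178 and 1894 CPM against 520 and 546 CPM. Proximal tubule markers fell in 6 of 6 (1915 to 3064 CPM against 14983 to 16296 CPM), endothelial markers in 8 of 8 (62.4 to 111 CPM against 208 to 580 CPM) and macrophage markers in 7 of 7 (20.1 to 27.1 CPM against 105 to 226 CPM), and they move with Sucnr1. The part of these cells in the receptor differences was not tested.

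In cells sorted with c-Kit, Oxgr1, Adgrf5 and P2ry14 again had high levels. Oxgr1 was at 857 and 906 TPM in the 2 c-Kit samples and 15.6 and 19.2 TPM in the 2 DBA samples, a log2 difference of 5.59 ± 0.10 on the log2(TPM + 1) scale. Adgrf5 was at 469 and 491 TPM against 17.9 and 21.5 TPM (4.54 ± 0.09). P2ry14 was at 91.3 and 90.6 TPM against 3.22 and 4.72 TPM (4.23 ± 0.15). The 3 genes kept replicates of a group close together and the groups far apart. Casr was at 21.0 and 19.2 TPM against 9.67 and 11.2 TPM (0.88 ± 0.12), a small gap without overlap. Sucnr1 was at 11.9 and 10.0 TPM in c-Kit and 13.2 and 11.7 TPM in DBA samples, and these ranges overlapped (-0.17 ± 0.14, 95% interval -0.51 to 0.17). Of the 5, 4 were called higher and 0 lower, beside 44.3% of 14341 genes tested with limma (16.1% higher, 28.1% lower). The same 4 had groups without overlap, beside 73.9% of all genes (27.6% higher, 46.3% lower), again as a description.

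Markers of other cell types differed between the c-Kit and DBA fractions too. Mast cell markers rose in 4 of 4 tested, with sums of 69.2 and 82.1 TPM against 0.32 and 0.38 TPM, and plasma cell markers rose in 3 of 3. Type A markers summed to 3059 and 3097 TPM against 61.1 and 73.1 TPM. DBA cells had more of the principal cell markers (22366 and 24929 TPM against 2524 and 3400 TPM) and of the macrophage markers (3823 and 3994 TPM against 620 and 701 TPM). Sucnr1 and Casr were low in both fractions, and the part of these cells in their values was not tested. By level per length in c-Kit cells the order was Oxgr1, Adgrf5, P2ry14, Casr and Sucnr1, with means of 882, 480, 90.9, 20.1 and 11.0 TPM, and in each step the values of the 2 samples did not overlap.

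**Figure D2:**
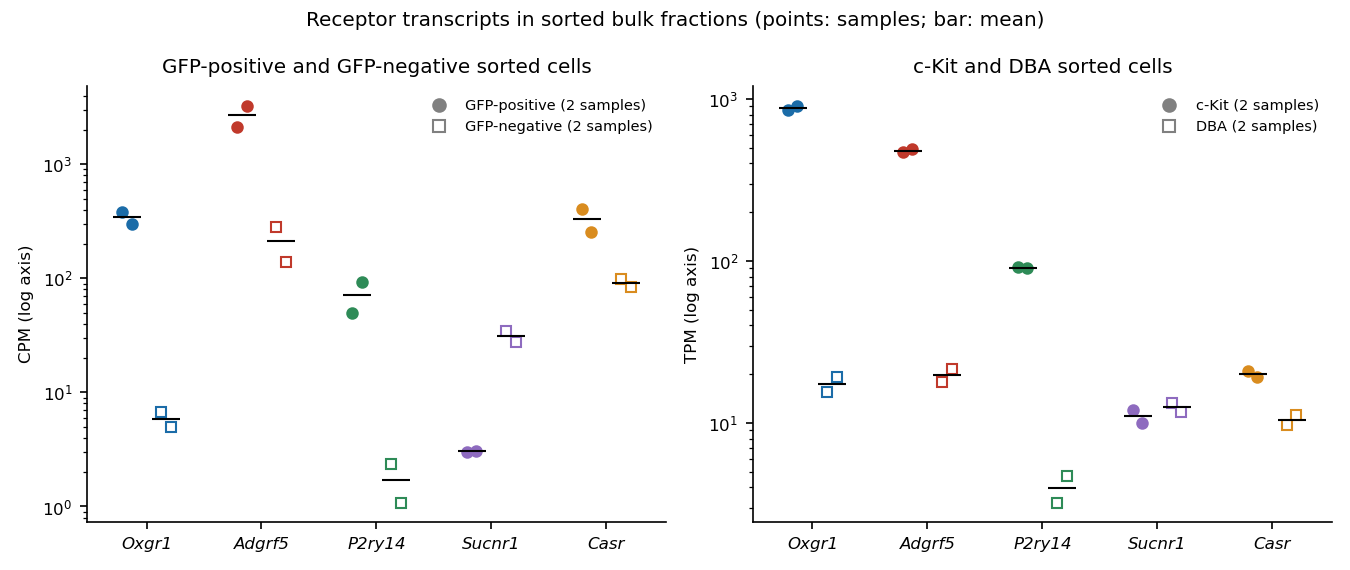
Levels of the 5 receptors in sorted bulk fractions, in CPM (left panel, GFP-positive and GFP-negative cells) and TPM (right panel, c-Kit and DBA cells), both on log axes, with 1 point per sample and a bar at the mean. Filled circles of Oxgr1, Adgrf5, P2ry14 and Casr lie above the open squares in both panels, and Sucnr1 lies lower in GFP-positive cells and at like levels in c-Kit and DBA cells.

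The dissected segments gave a contrast of tubules, but intercalated cell markers also differed between them. Mean Foxi1 was 654 TPM in CCD and 0.435 TPM in cTAL, and mean Slc4a1 was 290 and 0.226 TPM. A rise in CCD of genes chosen as receptors of intercalated cells is therefore not independent of that choice. Oxgr1, Adgrf5 and P2ry14 were higher in CCD than in cTAL, Casr was lower, and Sucnr1 did not pass the test. Of the 5 genes 3 rose and 1 fell, beside 18.7% of all 13520 genes tested with limma on log2(TPM + 1) at an adjusted p under 0.05 (13.2% higher, 5.50% lower). The tubules carried their segment markers: Aqp2 ranged from 10200 to 22096 TPM in CCD and from 3.88 to 35.2 TPM in cTAL, and Umod from 29949 to 48119 TPM in cTAL and from 29 to 629 TPM in CCD. The sample columns carry prefixes m1 to m7, 6 of them found in both segments, that the labels do not explain. The fit counts each tubule sample as independent, which the labels do not settle. Sample m2_CCD2 stood apart from the other CCD samples in P2ry14 and Sucnr1 and was the lower of 2 low samples in Casr, and its values are given with each.

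Oxgr1 was at a lowest, median and highest level of 27.7, 94.2 and 296 TPM in the 11 CCD samples and of 0.07, 5.46 and 17.7 TPM in the 8 cTAL samples. Every CCD sample lay above every cTAL sample. The log2 difference was 4.50 ± 0.59 (limma, adjusted p = 3.83e-06, 95% interval 3.27 to 5.73). The cTAL samples were themselves divided: those with prefixes m1 to m3 were at 0.07 to 0.12 TPM, and the 5 with prefixes m4, m6 and m7 at 2.74 to 17.7 TPM. The cTAL mean of Oxgr1 was 5.71% of its CCD mean. The same share over 18 markers of intercalated and principal cells ran from 0.0665% for Foxi1 to 25.5% for Atp6v1b1, with a median of 0.112%. The part of RNA from collecting duct cells in the cTAL values was not tested. Foxi1 and Slc4a1 stayed under 1 TPM in all 8.

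Adgrf5 was at 15.5, 45.3 and 82.7 TPM (lowest, median, highest) in CCD and at 0.09, 0.675 and 4.33 TPM in cTAL, with no overlap. Its difference was 4.35 ± 0.42 (limma, adjusted p = 3.19e-08). Endothelial markers ranged from 91.0 to 626 TPM in CCD and from 47.4 to 299 TPM in cTAL, and 1 of 8 rose, Plvap; their part in the Adgrf5 difference was not tested. P2ry14 was at 0.05, 35.2 and 103 TPM in CCD and at 0, 0.065 and 1.72 TPM in cTAL (4.45 ± 0.63, adjusted p = 1.06e-05). The 10 other CCD samples started at 14.4 TPM, so the overlap came from m2_CCD2 alone, and without it the difference was 4.93. Without overlap between segments were 3 of the 5 genes, Oxgr1, Adgrf5 and Casr, beside 5.51% of all genes tested (3.40% higher, 2.11% lower).

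Casr ran against the other receptors, with 45.9, 113 and 186 TPM in cTAL and 0.16, 24.3 and 41.3 TPM in CCD. The groups did not overlap, and the difference was -2.79 ± 0.63 (limma, adjusted p = 2.33e-03, 95% interval -4.10 to -1.49). The lowest CCD values were 0.16 TPM in m2_CCD2 and 0.46 TPM in m3_CCD1, while the other 9 samples were at 10.1 TPM or more. Without m2_CCD2 the difference was -2.42. The CCD mean of Casr was 19.1% of its cTAL mean. The same share over 5 thick limb markers ran from 0.280% for Slc12a1 to 3.98% for Ptger3, with a median of 1.34%. The part of thick limb RNA in the CCD values of Casr was not tested. Sucnr1 was at or above 1 TPM in 4 of 11 CCD and 2 of 8 cTAL samples, with a highest CCD value of 137 TPM in m2_CCD2 and a next value of 6.96 TPM. Its median was 0 in both segments, and its difference of 0.75 ± 0.80 did not pass the test (limma, adjusted p = 0.582, 95% interval -0.91 to 2.40). Without m2_CCD2 it was 0.17.

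**Figure D3:**
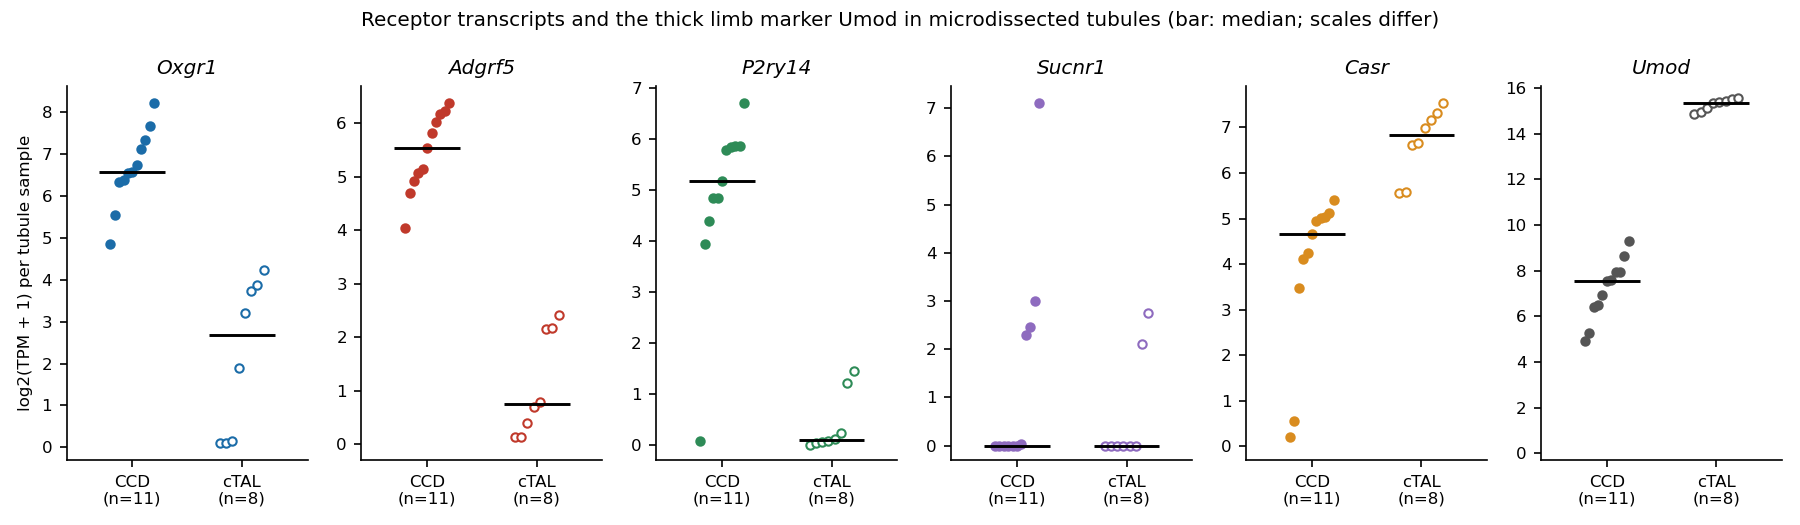
Levels of the 5 receptors and of the thick limb marker Umod in 11 CCD and 8 cTAL samples, as log2(TPM + 1) on vertical axes that differ between panels; points are samples in rising order and bars are medians. Oxgr1 and Adgrf5 are higher in every CCD sample than in any cTAL sample, P2ry14 overlaps by 1 CCD sample at 0.05 TPM, Casr is lower in every CCD sample and Sucnr1 is at 0 in 6 samples of each segment.

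**Figure D4:**
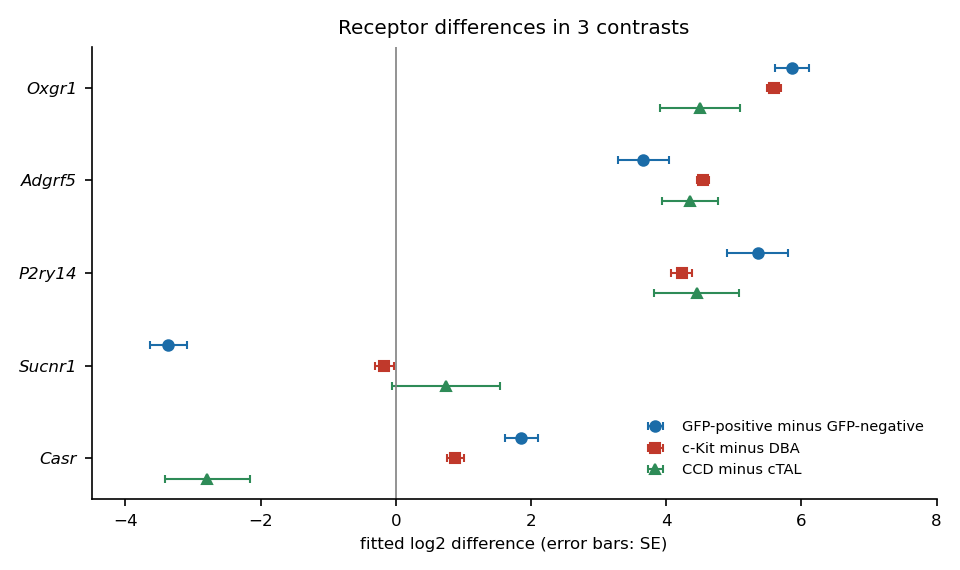
Fitted log2 differences (horizontal axis, error bars SE) of the 5 receptors in 3 contrasts: edgeR on counts for GFP-positive minus GFP-negative, and limma on log2(TPM + 1) for c-Kit minus DBA and CCD minus cTAL. Oxgr1, Adgrf5 and P2ry14 lie between 3.66 and 5.86 in each, Casr is above 0 in the sorted fractions and at -2.79 in the tubules, and Sucnr1 is at -3.37, -0.17 and 0.75.

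Across the 11 CCD samples, 4 receptors were set against Foxi1, Slc4a1, Slc26a4 and Aqp2, which gave 16 relations on log2(TPM + 1); Sucnr1 was at 1 TPM in too few samples. Oxgr1 with Slc4a1 had a Pearson r of 0.79 (permutation p = 0.00215, adjusted 0.0344) and a Spearman rho of 0.75 (permutation p = 0.0111, adjusted 0.0881). Without the 2 samples farthest from the Slc4a1 median r was 0.55. Averaging samples of 1 prefix left 7 values with r = 0.59 (permutation p = 0.189, adjusted 0.504), so the relation did not hold past the adjustment there, and a prefix holds at most 2 CCD samples, too few for a value within it. Adgrf5 with Slc4a1 had r = 0.75 (permutation p = 0.00823, adjusted 0.0658) and rho = 0.71 (permutation p = 0.0178, adjusted 0.0881), and r = 0.73 without the 2 farthest samples. P2ry14 with Slc4a1 had r = 0.04 and rho = 0.39 (adjusted permutation p of 0.975 and 0.347), and r was -0.15 with samples of 1 prefix averaged and 0.55 without m2_CCD2. Casr with Slc26a4 had r = 0.37 and rho = 0.60 (adjusted permutation p of 0.443 and 0.130). The remaining 12 relations had adjusted permutation p for r of 0.0942 or more. Among them, Adgrf5 with the type B marker Slc26a4 had r = 0.68 and rho = 0.76, and Oxgr1 with Slc26a4 had r = 0.59 and rho = 0.69. No relation is therefore read as particular to the type A marker. The members were chosen as receptors of intercalated cells, so relations with intercalated markers, and their p-values, are not independent of that choice. The permutations treated the 11 samples as exchangeable, which the labels do not settle. Levels in a sample share its library and the sum to which TPM values are scaled.

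**Figure D5:**
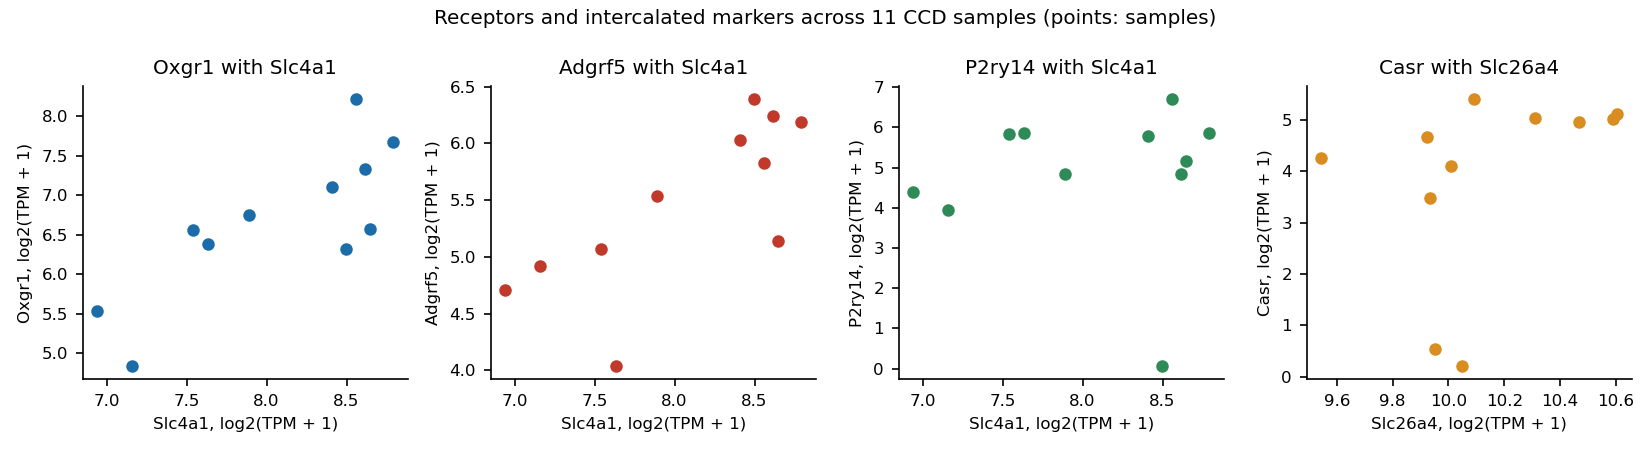
Receptor levels against intercalated markers in 11 CCD samples, both as log2(TPM + 1), 1 point per sample. Oxgr1 and Adgrf5 tend to be higher where the type A marker Slc4a1 is higher (r = 0.79 and 0.75). With the type B marker Slc26a4, not drawn for these genes, r was 0.59 and 0.68. P2ry14 has 1 sample near 0 and Casr has 2.

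Relatives of the receptors moved in both directions. In the values below a pair of levels gives the 2 group means. The median log2 difference over all genes was 0.02 in the GFP, -0.11 in the c-Kit and 0.31 in the tubule contrast. Of all genes tested, 15.2% were called higher and 17.3% lower in the GFP contrast. The shares were 16.1% and 28.1% in the c-Kit and 13.2% and 5.50% in the tubule contrast. List counts here and in the paragraphs that follow stand beside these shares, and nothing is read from counts near them. Of 9 P2Y and related nucleotide receptors tested in the GFP fractions, 0 rose, 3 fell and 6 did not pass, with a median log2 difference of -1.04. The gene P2ry6, a receptor for UDP, was at 0.385 CPM in GFP-positive and 6.32 CPM in GFP-negative cells (-4.03 ± 0.61) and P2ry10 fell by 3.65. In c-Kit against DBA cells 1 of 7, Gpr171, was higher and 5 were lower (median -1.93), with P2ry13, which neighbours P2ry14, at 0.635 against 7.80 TPM and P2ry2 at 2.17 against 14.2 TPM. In the tubules 2 were tested and neither passed. Of the other metabolite receptors, 2 of 10 rose and 2 fell in GFP-positive cells (median -0.95), among them the bile acid receptor Gpbar1 (4.80 ± 1.22) and Gpr84 (-4.96 ± 1.43), both under 1 CPM in every group. In c-Kit cells 2 of 6 were higher, with the fatty acid receptor Ffar4 at 4.64 against 0.01 TPM, and 2 lower, with the adenosine receptor Adora1 at 12.6 against 33.4 TPM. Adora1 was the 1 of 4 that rose in CCD (median of the 4 -0.19), at 18.5 ± 11.5 TPM (SD, n = 11) against 0.0287 TPM.

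Other adhesion receptors moved both ways. In GFP-positive cells 7 of 21 rose and 5 fell (median -0.76), led by Adgrf1, which lies 35714 bases from Adgrf5 on the same strand and was at 134 ± 75.0 CPM (SD, n = 2) against 5.07 ± 0.881 CPM (4.72 ± 0.41, edgeR adjusted p = 8.80e-05), and by the macrophage gene Adgre1, which fell by 4.14. Adgrf1 was detected in 0 single cells of all types, which allows a share of up to 1.28%, and had 1.97 TPM in c-Kit and 0.135 TPM in DBA cells. In c-Kit cells 3 of 15 were higher and 7 lower (median -0.37), with Adgrg6 at 1.06 against 12.2 TPM and Adgre1 at 23.1 against 130 TPM. In CCD 3 of 12 rose and 1 fell (median 0.55), with Adgrg6 at 6.09 against 0.0112 TPM and Adgrg3 at 12.1 against 2.41 TPM. Of class C receptors, the family of Casr, 1 of 6 rose in GFP-positive cells, Gprc5b (2.64 ± 0.32), and the median was 0.52. In c-Kit cells Gprc5b was 1 of 2 lower genes among 4 tested, at 1.00 against 6.60 TPM, and Gprc5a the 1 higher, at 12.2 against 5.81 TPM (median of the 4 -0.31). In CCD 2 of 4 rose (median 1.10), Gprc5b (2.64 ± 0.41) and Gprc5c (0.93 ± 0.29), the latter a call lost under quantile normalization.

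Genes that make, break down or carry 2-oxoglutarate and succinate, the ligands of Oxgr1 and Sucnr1, were counted in each contrast. In c-Kit cells 17 of 21 were higher and 1 was lower (median 0.54), with the aminotransferase Got1 at 338 against 136 TPM and the succinate dehydrogenase subunit Sdhd at 1310 against 622 TPM. In GFP-positive cells 4 of 21 rose and 6 fell (median -0.17), and the fallen ones included the dicarboxylate carriers Slc13a2 (4.60 against 45.2 CPM) and Slc13a3 (116 against 514 CPM), of the luminal and the basolateral side of the proximal tubule. In CCD 1 of 21 rose, the mitochondrial carrier Slc25a10 (107 against 49.1 TPM), a call lost under quantile normalization, and 9 fell (median -0.54), with Suclg1 at 395 against 855 TPM in cTAL. Of 12 UDP-sugar synthesis genes 0 rose and 6 fell in GFP-positive cells (median -0.66), with Ugdh at 49.4 against 188 CPM and Pgm2 at 16.6 against 37.6 CPM. In c-Kit cells (median 0.01) 2 of 12 were higher, with Galt at 108 against 65.6 TPM, and 1 lower, Uxs1, at 12.3 against 19.1 TPM. In CCD 3 of 11 rose and 0 fell (median 0.28), with Ugdh at 31.2 against 8.15 TPM and Uxs1 at 21.2 against 6.42 TPM.

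Signalling genes downstream of these receptors were mixed. Of 24 G protein, phospholipase and calcium signalling genes, 6 rose and 5 fell in GFP-positive cells (median 0.03). The calcium release channel Itpr2 was at 909 against 83.4 CPM (3.45 ± 0.27) and the phospholipase Plcb4 at 124 against 20.3 CPM (2.61 ± 0.18). In c-Kit cells 6 of 24 were higher and 13 lower (median -0.48), with Itpr2 again higher, at 201 against 50.6 TPM, and the arrestin Arrb2 lower, at 27.2 against 89.5 TPM. Itpr2 was detected in 72 of 87 type A and 20 of 23 type B cells. In CCD 8 of 18 rose and 1 fell (median 0.51): the kinase gene Prkca was at 12.1 against 0.679 TPM and Plcb1, the gene that fell, at 2.19 against 24.5 TPM.

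Intercalated cell effectors, a list of acid and base transporters, proton pump subunits, Car2 and the transcription factor Foxi1, rose in 10 of 10 in GFP-positive cells (median 6.31), with Slc26a4 at 712 against 5.09 CPM and Foxi1 at 489 against 4.09 CPM. The list holds Atp6v1b1, for which the GFP strain is named. It also shares Slc4a1, Slc26a4, Foxi1 and other genes with the marker lists above, so its counts are a description. In c-Kit cells 9 of 10 were higher (median 3.22), with Slc4a1 at 1727 against 31.6 TPM and Atp6v1g3 at 1827 against 65.1 TPM, and the sodium-dependent exchanger Slc4a8 was lower by the test (-0.63 ± 0.16), a call lost under quantile normalization. In CCD 9 of 10 rose (median 7.22), with Slc26a4 at 1149 against 0.880 TPM and Foxi1 at 654 against 0.435 TPM, and Slc4a8 did not pass (0.09 ± 0.44). Genes that work with Casr in the thick limb fell in 7 of 8 in CCD (median -5.94), with Slc12a1 at 10.5 against 3746 TPM and Umod at 205 against 40070 TPM, and 1 did not pass the test. In GFP-positive cells (median 0.56) 2 of 7 rose, the potassium channel Kcnj1 (841 against 311 CPM) and Cldn16, a claudin of calcium and magnesium transport (45.6 against 18.7 CPM), and 2 fell. In c-Kit cells 0 of 7 rose and 4 were lower (median -0.45), with Kcnj1 at 175 against 842 TPM and Cldn19 at 5.53 against 12.5 TPM. The GFP contrast and the c-Kit contrast use different samples, and the lists were chosen with earlier results known.

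Nearby protein-coding genes were read out beside the receptors. P2ry14 lies within Med12l, which runs on the opposite strand at chr3:59005825-59318682, and the sources used here do not state whether counting used strand, so reads of the 2 genes could not be separated with certainty; Med12l itself was at 0.865 TPM in c-Kit cells, where P2ry14 was at 90.9 TPM. Beside it, Gpr171 and P2ry13 were at 2.57 and 0.635 TPM in c-Kit cells and were each detected in 2 of 32 non-epithelial cells and in no type A cell, and Clrn1 was at 0 in c-Kit cells. Next to Oxgr1, Hs6st3 was at 0.045 TPM and Mbnl2 at 71.0 TPM in c-Kit cells, against 67.0 TPM in DBA cells, and Uggt2 and Rap2a were at 8.24 and 15.4 TPM. Next to Adgrf5, Mep1a was at 75.6 TPM in c-Kit and 94.7 TPM in DBA cells, Tnfrsf21 at 166 and 59.8 TPM, and Ankrd66 at 0 in both. Around Sucnr1, Aadac was at 76.2 and 189 TPM, and it was detected in 16 of 19 proximal tubule cells, Mbnl1 was at 63.4 and 88.2 TPM, P2ry1 at 5.12 and 4.47 TPM and Aadacl2 at 0. Around Casr, Ildr1 was at 72.3 and 68.3 TPM, the leukocyte gene Cd86 at 25.0 and 60.6 TPM, and Stfa2 and Stfa3 at 0.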

How the data were processed

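Single cells, sorted fractions and tubules came as tables of TPM deposited by the authors. The submitters' processing notes name STAR 2.5.1b, RSEM 1.2.31, Seurat and GRCm38.p5. The GFP fractions came as a count table, per the file headers gene counts by symbol, with 5 rows that name no gene left out. They also came as an RPKM table deposited by the authors. The 2 tables do not match for Sucnr1, at 0 RPKM but 112 counts in the first GFP-positive sample. P2ry14 in the first and second GFP-negative samples was at 100 and 37 counts but 0.380 and 0.949 RPKM. Adgrf5 appears in the GFP tables as Gpr116, matched through RefSeq synonyms. The depth behind TPM values is not kept by that unit.

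Counts were fitted with edgeR 4.0.16 (TMM, filterByExpr, quasi-likelihood test), and TPM with limma 3.58.1 on log2(TPM + 1) with a variance trend, keeping genes that averaged 1 TPM or more over the samples fitted. P-values were adjusted by Benjamini-Hochberg over all genes tested and called under 0.05. All 5 members passed the filters. The scripts recovered known changes in simulated data. Correlations used 100000 permutations, two-sided. Named list genes are the 2 with the largest absolute log2 difference among the called genes of a list and comparison, and the genes most like a member are the 5 with the highest r of at least 0.5. Members and lists were chosen with earlier results of these data known, and genes named outside this rule, such as Slc4a8 and Gpr171, were picked after their values were seen.

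The file headers of the RPKM table name a first and a second experiment for both GFP groups. They do not state that the replicate numbers of the count table are those experiments. In the count table, deviations from the group means of GFP samples with the same number had a correlation of 0.168. The main GFP fit does not use the number as pairing. Alternatives were DESeq2 1.42.0, other scalings, filters and pseudocounts, array weights, blocks and leaving out samples. Python 3.11.15 and R 4.3.3 were used.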

Additional observations from a re-analysis of the deposited data

How the results depend on the processing

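For CCD against cTAL, Oxgr1, Adgrf5, P2ry14 and Casr kept their direction and their side of the threshold under the 28 alternatives run, with ranges of 3.41 to 5.53 for Oxgr1, 2.91 to 5.54 for Adgrf5, 2.76 to 6.43 for P2ry14 and -3.15 to -2.10 for Casr. Sucnr1 did not pass under the 27 that gave it a value; a mean of at least 10 TPM left none. In the sorted fractions, where the values are a description, Sucnr1 in c-Kit against DBA changed sign to 0.052 under quantile normalization, and the other differences of the 5 genes kept their sign. The number of genes called was 5101 for GFP, against 1639 by limma on RPKM; 6348 for c-Kit, against 3458 to 5701 without 1 sample, where the lone sample of a group is assumed to vary like the others; and 2526 for CCD, against 4401 with array weights and 2239 to 3078 without 1 sample, the highest without m2_CCD2. Without a GFP sample 3616 to 4211 genes were called. Quantile normalization moved the median of all genes from 0.31 to -0.03 in the tubules and from -0.11 to 0.02 in c-Kit, and it changed the split of calls from 1782 higher and 744 lower to 1221 and 1244 in the tubules, and from 2315 and 4033 to 3055 and 3072 in c-Kit; no list gene was called in opposite directions, and 2-oxoglutarate and succinate genes lower in CCD went from 9 to 14 of 21. With the replicate block, GFP calls numbered 5897 and c-Kit calls 6271, and no member's difference changed sign; the c-Kit and DBA samples share only a number (correlation of deviations 0.0264). Chosen after seeing the data, a block on the tubule prefixes gave 2588 calls and means per prefix 1823. The correlations of deviations between the segments within the 6 shared prefixes were 0.0154 to 0.159, and the main fit does not use the prefix as pairing. These correlations cannot show whether samples of 1 segment and 1 prefix are independent, which the main fit assumes. Means per prefix also left 0 of 16 CCD relations past an adjusted permutation p of 0.05, against 1, and Oxgr1 with Slc4a1 at r = 0.59. The cause of these changes was not tested.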
